A study of Mus musculus with 40 samples.

Results

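Aortas of mice without the EGF receptor (EGFR) in endothelial cells were compared with aortas of control mice, both on standard diet (SD). Of the 40 libraries of the study, 8 entered this comparison, 4 from EC-EGFR-KO mice (R-11, R-13, R-14 and R-15) and 4 from EC-EGFR-WT mice (R-2, R-3, R-4 and R-5). KO mice carried loxP-flanked Egfr on both alleles and the transgene B6.Cg-Tg(Tek-cre)1Ywa/J, which puts Cre under the Tie2 promoter and cannot be switched on at a chosen time. Excision removes a fragment with exon 1. WT mice carried the same Cre but no loxP sites. The Tie2 promoter is also active in blood-forming cells, so the deletion is not limited to endothelium. From 6 weeks of age, all 8 animals ate chow with 10% of its energy from fat, over 18 weeks. The aortas were freed of surrounding fat and snap frozen. The study also sequenced aortas after a high fat diet (HFD, 60% of energy from fat) and kidneys of both diets, of which the HFD aortas (10 libraries) and SD kidneys (10 libraries) serve below as comparisons.

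The labelled groups held 5 libraries each, but KO replicate R-12 and WT replicate R-1 were near-identical and both were left out. Their counts differed by less than sampling noise (median chi-square over genes 0.0277, against 0.455 for sampling noise alone), whereas the closest pair among the 8 libraries used had 1.75. Between 18837908 and 23683293 reads per library fell on genes. The smooth muscle marker Myh11 stood at 8040 to 10500 FPM in each library, FPM being reads per TMM-scaled library size times 1e+06. For 7724 genes every library listed 0. They lie on chromosomes 9, MT, X and Y and beyond position 97876154 of chromosome 8, include 12.1% of the protein-coding genes, and are not analysed here. R-11 stood apart from the other KO libraries. The lymphoid list summed to 193.2 FPM in R-11 and to 22.57 to 43.54 FPM in the other 7 libraries, the red blood cell list to 80270 FPM against 2112 to 30620 FPM, and Arntl, a core activator of the circadian clock, stood at 3.72 FPM against 37.3 to 62.9 FPM. Results that turn on R-11 are given with and without it.

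EGFR is a receptor tyrosine kinase of the cell surface. It is bound by EGF, TGF-alpha, HB-EGF, betacellulin, epiregulin and amphiregulin, and pairs with its relatives ErbB2, ErbB3 and ErbB4. It passes its signal through Grb2, Shc1 and Sos1 to the MAP kinase cascade. In the vessel wall both smooth muscle and endothelial cells carry it, and ligands can be shed from the membrane by ADAM17 after stimulation of other receptors. Whole aorta consists mostly of smooth muscle cells, so endothelial transcripts are a minor part of each library.

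The gene targeted in these mice was measured first. Egfr (ENSMUSG00000020122, GRCm38/mm10 chr11:16752203-16918158, plus strand) had 39.3, 36.5, 54.3 and 30 FPM in the WT libraries and 37.7, 46.1, 50.1 and 48.2 FPM in the KO libraries. The 2 groups overlapped over nearly the whole range. The means were 40.03 ± 10.31 FPM in WT and 45.54 ± 5.495 FPM in KO (SD, n = 4 each), a log2 difference of 0.19 (standard error 0.17, 95% interval -0.17 to 0.54, adjusted p = 1 with edgeR's quasi-likelihood test). An exact two-sided permutation test of the FPM values gave p = 0.371, where 4 against 4 libraries cannot go below 0.0286. Single libraries moved it: the log2 difference was 0.30 without R-11, 0.07 without WT replicate R-5 and 0.37 without WT replicate R-4 (unadjusted p = 0.0342 with edgeR), higher in KO each time. The count sums over all exons and all cells of the wall, and it is therefore a limited check of an exon 1 deletion in endothelium. The study checked the deletion in other ways. It used PCR for the excised fragment in DNA of lung or aorta, and qRT-PCR for reduced Egfr mRNA in lung. In bulk tissue, fewer cells of a type and less RNA per cell cannot be told apart.

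At an adjusted p of 0.05, edgeR's quasi-likelihood test called 0 of 15254 genes tested (0%), and the smallest adjusted p was 0.0707. The unadjusted p was under 0.05 in 701 genes, or 4.60%, and in 1606 without R-11. These were unevenly spread over gene classes. Among 12325 protein-coding genes, 136 (1.10%) were lower in KO at that threshold and 222 (1.80%) were higher. Among 1299 pseudogenes, 222 (17.1%) were lower and 19 (1.46%) were higher. The size of this excess of pseudogenes depended on the fit. With the white adipocyte score as a covariate, 126 pseudogenes and 1320 protein-coding genes had an unadjusted p under 0.05, in place of 241 and 358, so the share of pseudogenes was no longer the larger one. With R-1 and R-12 kept, which puts nearly the same values into both groups, 67 pseudogenes and 217 protein-coding genes did. With only the 2 SD groups fitted, 210 pseudogenes and 306 protein-coding genes did. In both of these fits the share of pseudogenes stayed the larger one. In the fit as described, the median log2 difference was -0.01 over protein-coding genes and -0.21 over pseudogenes, and 900 pseudogenes had lower values in KO against 399 with higher values. The same split appeared where the groups of 4 did not overlap at all: this held for 103 protein-coding genes lower in KO (0.836%) and 124 higher (1.01%), and for 122 pseudogenes lower (9.39%) and 12 higher (0.924%). Other tests on the same counts passed more genes, with 32 called by the DESeq2 Wald test and 30 each by edgeR's exact and likelihood ratio tests. Of these, 27 were called by all 3 tests, and 21 of the 27 were pseudogenes with lower values in KO.

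Processed pseudogenes are copies of spliced messenger RNAs that were written back into the genome. They resemble the coding sequence of a parent gene and usually lack introns. A read that lies where pseudogene and parent have the same bases can be assigned to either, so counts on such genes are uncertain where the counting could split reads between them. How reads with several positions were handled is not given in the sources used here.

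The 5 pseudogenes with the smallest p and a mean of at least 1 FPM are shown with the sequence that sets each apart from its closest protein-coding transcript, since only bases that differ can tell their reads from those of the parent. Each pair below is the 120-base stretch with the most mismatches within the longest gap-free alignment to the parent's coding sequence, 5′ to 3′ in the sense of the parent, from GENCODE M21 transcripts (GRCm38/mm10). Capitals mark the bases that differ.

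Gm11991, a single-exon copy of Hnrnpa3 (a nuclear RNA-binding protein) in an intron of Pkd1l1, which matches its parent on the strand opposite to its own annotation, window chr11:8884537-8884656, plus strand:
Gm11991: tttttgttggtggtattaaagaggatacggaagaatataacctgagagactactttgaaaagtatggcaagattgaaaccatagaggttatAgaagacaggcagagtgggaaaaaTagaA
Hnrnpa3: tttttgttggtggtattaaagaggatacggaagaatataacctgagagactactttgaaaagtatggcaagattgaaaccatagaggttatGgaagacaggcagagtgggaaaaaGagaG

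Gm5564, a copy of Morf4l1 (a chromatin protein), overlapping no other annotated gene, window chr5:138505052-138505171, plus strand:
Gm5564: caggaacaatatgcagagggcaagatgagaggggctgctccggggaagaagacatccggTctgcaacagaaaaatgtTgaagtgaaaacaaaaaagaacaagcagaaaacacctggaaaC
Morf4l1: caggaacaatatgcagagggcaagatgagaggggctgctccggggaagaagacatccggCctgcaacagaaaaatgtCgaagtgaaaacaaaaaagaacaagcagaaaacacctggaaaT

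Gm5869, a copy of Eef1a1 (the translation elongation factor that brings transfer RNA to the ribosome), overlapping no other annotated gene, window chr5:86997159-86997278, plus strand:
Gm5869: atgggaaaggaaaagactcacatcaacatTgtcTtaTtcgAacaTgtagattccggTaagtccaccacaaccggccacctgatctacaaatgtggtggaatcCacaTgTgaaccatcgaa
Eef1a1: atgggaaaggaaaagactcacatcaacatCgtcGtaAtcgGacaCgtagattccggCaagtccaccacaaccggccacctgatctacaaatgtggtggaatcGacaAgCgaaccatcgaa

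Gm10075, a copy of Hmgb1 (a DNA-binding protein of chromatin) in an intron of Tfap2d, window chr1:19153599-19153718, minus strand:
Gm10075: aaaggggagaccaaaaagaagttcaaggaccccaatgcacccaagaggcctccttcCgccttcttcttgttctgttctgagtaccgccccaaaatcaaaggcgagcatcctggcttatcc
Hmgb1: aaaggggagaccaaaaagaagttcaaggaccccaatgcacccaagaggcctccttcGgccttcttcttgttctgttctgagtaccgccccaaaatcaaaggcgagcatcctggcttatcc

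Gm8319, a second copy of Hmgb1 in an intron of Tenm4, window chr7:96203119-96203238, minus strand:
Gm8319: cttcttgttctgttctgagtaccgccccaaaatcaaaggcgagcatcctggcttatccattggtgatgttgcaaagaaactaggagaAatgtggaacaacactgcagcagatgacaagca
Hmgb1: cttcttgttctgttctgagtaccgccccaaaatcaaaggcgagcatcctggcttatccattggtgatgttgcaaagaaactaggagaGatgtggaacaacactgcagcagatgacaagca

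These windows differed at 3, 3, 9, 1 and 1 of 120 bases. Over the whole alignment, which in some copies also holds gaps, the identity was 98.1% for Gm11991, 98.8% for Gm5564, 96.3% for Gm5869, 97.98% for Gm10075 and 98.2% for Gm8319. The longest stretch without a difference was 261, 253, 162, 222 and 249 bases, so a read within such a stretch has the same bases as the parent.

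Gm11991 (ENSMUSG00000082095, chr11:8884223-8885296) had 12.7, 13, 16.5 and 17.8 FPM in WT and 6.61, 6.36, 6.92 and 7.77 FPM in KO. The lowest WT library lay well above the highest KO library, with R-11 among the other KO libraries. The log2 difference was -1.12 (standard error 0.17, adjusted p = 0.0707 with edgeR, the smallest of the comparison and shared with the 4 genes that follow). Its parent Hnrnpa3 had a log2 difference of -0.13 with an unadjusted p of 0.287.

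Gm5564 (chr5:138504813-138505779) had 20.4, 17.2, 24.6 and 34.1 FPM in WT and 8.80, 10.9, 10.9 and 10.1 FPM in KO, a log2 difference of -1.24 (standard error 0.21, adjusted p = 0.0707 with edgeR). Gm5869 (chr5:86997159-86998415) had 94.7, 73.2, 97.8 and 111 FPM in WT and 53.4, 50.2, 54.9 and 57.8 FPM in KO, a log2 difference of -0.80 (standard error 0.14, adjusted p = 0.0707 with edgeR). In both, all 4 KO libraries lay below all 4 WT libraries, with little spread among the KO values. Their parents Morf4l1 and Eef1a1 lie on chromosome 9, which is not analysed here.

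Gm10075 (chr1:19153422-19153966) had 10.9, 9.27, 9.61 and 12.9 FPM in WT and 4.52, 4.06, 6.07 and 5.47 FPM in KO, a log2 difference of -1.09 (standard error 0.19, adjusted p = 0.0707 with edgeR). Gm8319 (chr7:96202896-96203536) had 26.4, 26.5, 27.3 and 31.2 FPM in WT and 17.9, 13.3, 14.9 and 13.8 FPM in KO, a log2 difference of -0.89 (standard error 0.16, adjusted p = 0.0707 with edgeR). In both copies of Hmgb1 each KO library lay below each WT library, while Hmgb1 itself had a log2 difference of -0.13 with an unadjusted p of 0.314. Without R-11 the adjusted p of the 5 pseudogenes ranged from 0.123 to 0.169, and without WT replicate R-3 it was 0.0361 for Gm11991, Gm5564 and Gm5869, the 3 genes then called. With the white adipocyte score as a covariate their log2 differences were -0.999, -1.30, -0.70, -0.94 and -0.71, in the order above. Their unadjusted p from edgeR then ran from 0.000146 to 0.00132. The adjusted p was 0.423 for each, a value that other named genes such as Slirp shared in that fit. With only the 2 SD groups fitted, the adjusted p of the 5 pseudogenes from edgeR ranged from 0.274 to 0.49.

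**Figure D1:**
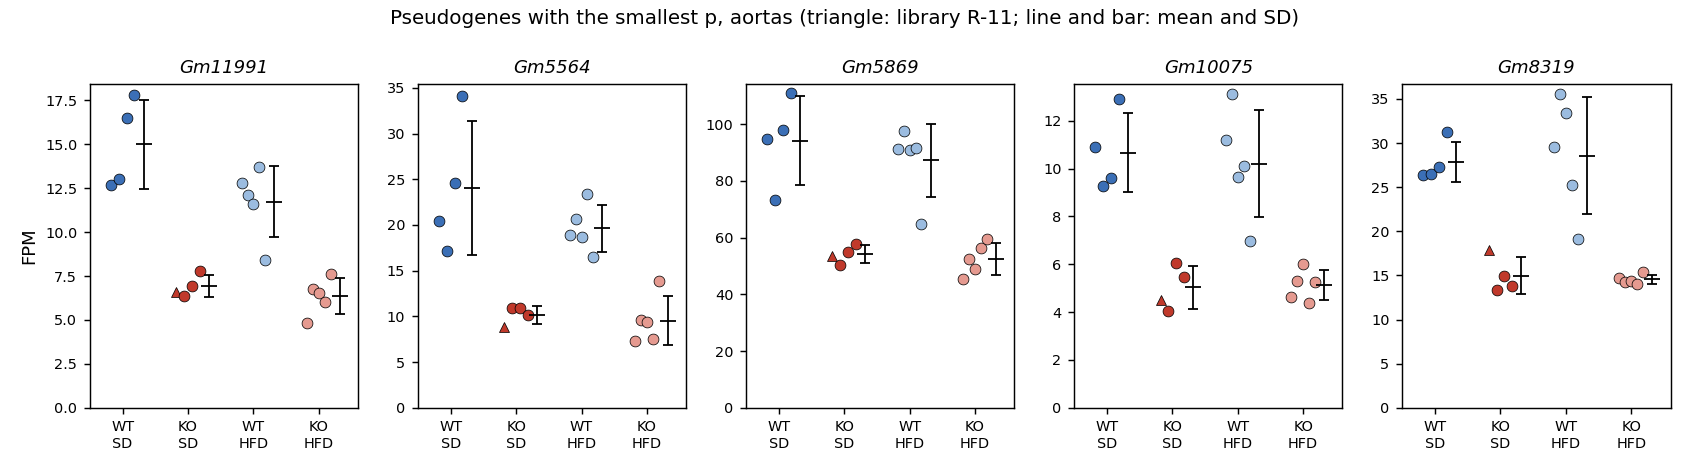
Level in FPM (vertical axis) of the 5 pseudogenes in each of 18 aortas, by genotype and diet (horizontal axis); points are libraries, the triangle is R-11, and line and bar give the mean and SD. Under SD the KO points lie below the WT points in each panel, and the KO libraries of the HFD groups lie at the same height as those of the SD groups.

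The same genes were then read in the HFD aortas, which shared the filter and the estimate of spread with the SD aortas. In HFD aortas, 5 KO against 5 WT in the same fit, 21 genes (0.138%) had an adjusted p under 0.05, all with lower levels in KO, and 20 of the 21 were pseudogenes (1.54% of those tested). The exception by annotation was Gm12728, listed as protein-coding. All of these calls were lost, leaving 0 with an adjusted p under 0.05 in edgeR's test, when only the HFD groups were fitted (944 with an unadjusted p under 0.05) or when R-1 and R-12 were kept (884), while DESeq2, the exact test and the likelihood ratio test called 142, 127 and 149. All 21 had lower values in KO under SD as well, each with an unadjusted p under 0.05, and in 19 of them the SD groups did not overlap. Of all pseudogenes tested, 17.1% were lower under SD at that p, and 9.39% were lower without overlap. In the other direction, 222 pseudogenes had lower values and p under 0.05 under SD. Of these, 221 had lower values under HFD, against 71.6% of all pseudogenes tested. Lower values with p under 0.05 were found there for 172, against 29.3% of all pseudogenes. These 172 made up 77.5% of the SD list and 45.1% of the HFD list of 381. The 222 had a median log2 difference of -0.99 under SD and -0.95 under HFD. The interaction of genotype and diet was called in 0 of 15254 genes by edgeR's quasi-likelihood test, where 132 genes had an unadjusted p under 0.05, the DESeq2 Wald test called 0 and the likelihood ratio test called 1. Leaving out WT replicate R-10 of the HFD groups, whose values lay nearest to those of KO, took the HFD count from 21 to 150, while leaving out any other HFD library left 1 to 10.

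For the 5 pseudogenes above, the HFD values followed the SD values closely. Gm8319 had 29.5, 35.6, 33.4, 25.2 and 19.1 FPM in WT and 14.7, 14.3, 14.4, 14 and 15.4 FPM in KO under HFD, a log2 difference of -0.97 (standard error 0.14, adjusted p = 0.0109 with edgeR). Gm11991 had 12.8, 12.1, 11.6, 13.7 and 8.40 FPM in WT and 4.82, 6.74, 6.51, 6.04 and 7.63 FPM in KO, a log2 difference of -0.88 with an adjusted p of 0.0277 from the same edgeR fit. In both, the 5 KO libraries lay below the 5 WT libraries, and R-10 was the WT library nearest to them. Gm5564 (log2 difference -1.04), Gm5869 (-0.73) and Gm10075 (-0.99) also passed, with edgeR adjusted p of 0.0388, 0.0262 and 0.0272.

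Kidneys of SD mice, 5 libraries of each genotype, gave other values. There 14 of 1264 pseudogenes (1.11%) had lower values with p under 0.05, the median log2 difference of pseudogenes was -0.01, and the quasi-likelihood test called 0 of 16043 genes, where 431 had an unadjusted p under 0.05 and the DESeq2 Wald, exact and likelihood ratio tests called 0 as well. Of the 222 pseudogenes, 191 were tested in kidney, where 5 had lower values and 1 a higher value with p under 0.05. Their median log2 difference in kidney was -0.01. Gm11991 had a log2 difference of -0.03 in kidney, Gm8319 of 0.03 and Gm5869 of -0.03.

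**Figure D2:**
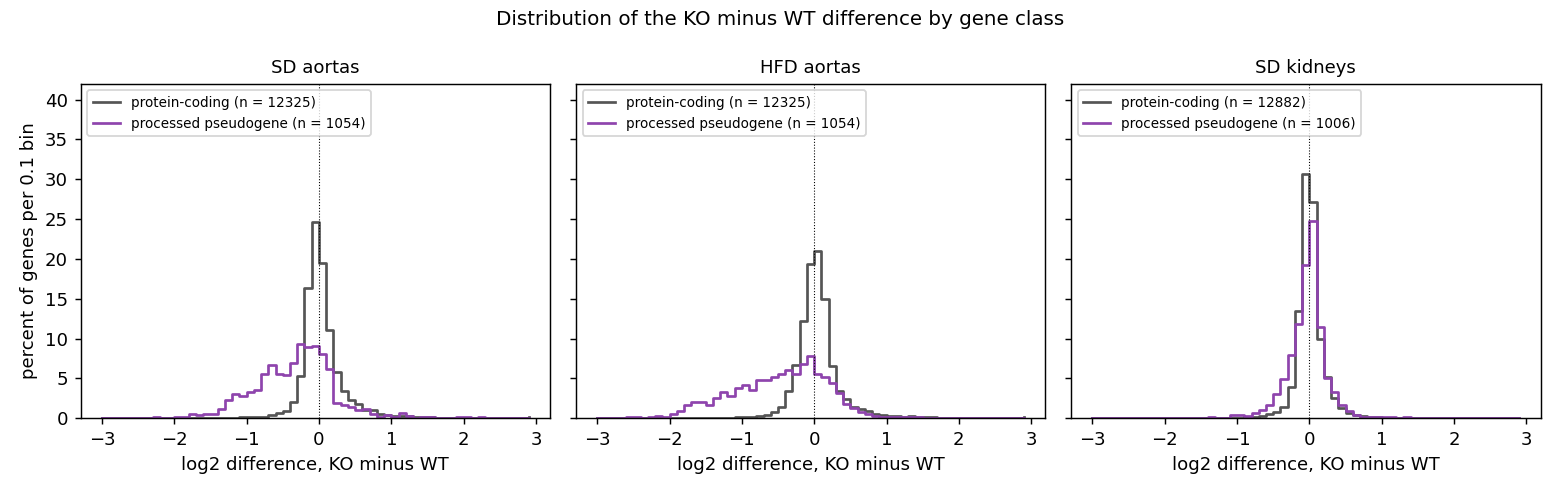
Percent of genes (vertical axis) per bin of 0.1 in the log2 difference of KO minus WT (horizontal axis) for protein-coding genes and processed pseudogenes in SD aortas, HFD aortas and SD kidneys. In both sets of aortas the processed pseudogenes spread to the left of 0, with medians of -0.28 and -0.40, while in kidneys both classes centre on 0.

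Processed pseudogenes made up most of the class, and the kinds of pseudogene differed. Of 1054 processed pseudogenes, 75.8% had lower values in KO under SD and 210 had p under 0.05 in that direction. Of 92 unprocessed pseudogenes, which often arise by gene duplication and can keep introns, 29.3% had lower values, the median was 0.16, and 3 had p under 0.05 in that direction. A protein-coding transcript aligned to at least 50% of the length of 1045 of the processed pseudogenes. The difference varied with their identity to this parent. The median log2 difference under SD was 0.45 for 29 pseudogenes with identity under 85%, 0.22 for 33 with 85 to 90%, -0.03 for 106 with 90 to 95%, -0.46 for 295 with 95 to 98% and -0.30 for 582 with 98% or over. Under HFD these medians were 0.07, 0.04, -0.05, -0.55 and -0.44. The copies with lower values and p under 0.05 made up 28.1% of those with 95 to 98% identity and 18.2% of those with 98% or over, against 20.1% of all copies with a parent. Where the parent was tested, their median identity was 98.31%, against 98.77% for the other copies. These medians are descriptions across genes, which share parents and libraries.

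**Figure D3:**
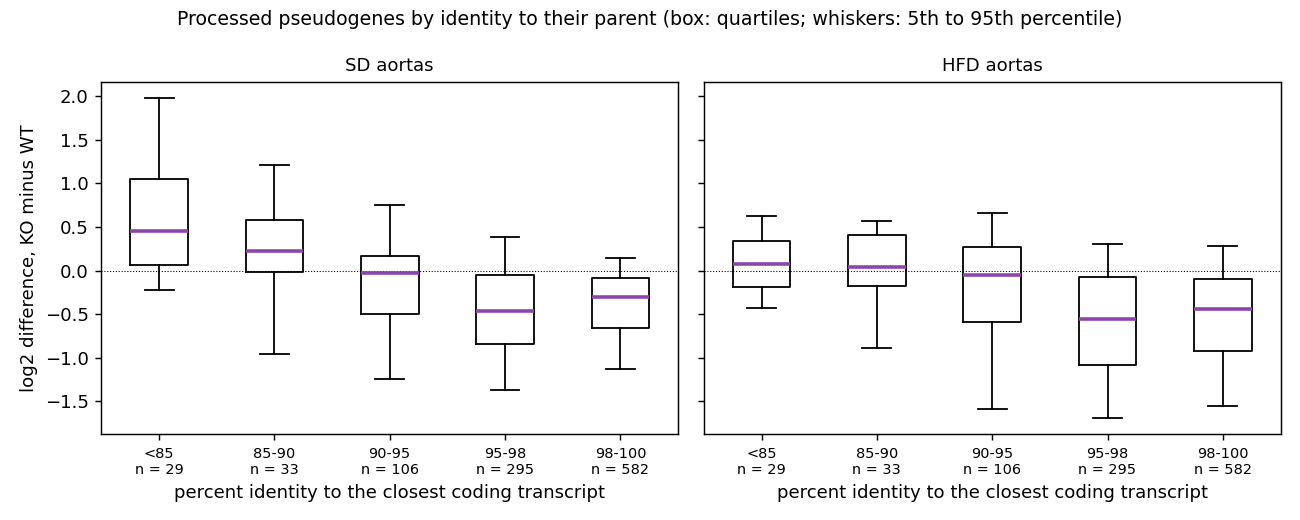
Log2 difference of KO minus WT (vertical axis) of processed pseudogenes in SD aortas and in HFD aortas, by percent identity to the closest protein-coding transcript (horizontal axis); boxes give quartiles, the coloured line the median and whiskers the 5th and 95th percentiles. Medians lie above 0 below 90% identity and below 0 from 95% on, in both diets.

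The parents were then read beside their copies. The parent was among the genes tested for 185 of the processed pseudogenes with lower values and p under 0.05. These copies, chosen for their low values, had 111 parents. Of the 111, 91 had lower values in KO, against 51.3% of all protein-coding genes, with a median log2 difference of -0.09. All protein-coding genes are not a like set, because the copies of these parents were chosen in the same libraries. Parents of the other copies were not summarised. An unadjusted p under 0.05 was found for 4 of the 111, all lower. Of the tested copies of Hmgb1, 13 of 24 were among the 185, and of those of Hnrnpa3, 12 of 14. Of the copies of Gapdh, the glycolytic enzyme, 11 of 34 were, and Gapdh had itself a log2 difference of -0.17 with p of 0.632. Of the copies of Rps2, a protein of the small ribosomal subunit, 7 of 23 were, and Rps2 had a log2 difference of -0.15 with p of 0.574. Over all processed pseudogenes with a parent, 20.1% had lower values and p under 0.05. The 222 pseudogenes lay on all 18 chromosomes with tested pseudogenes, with between 3 and 21 on each. On chromosome 11, which carries Egfr, 15 of 72 were among them, where the share over all pseudogenes tested was 17.1%. Within 2 Mb of Egfr, 10 protein-coding genes were tested, the quasi-likelihood test of edgeR gave 0 of the 10 an adjusted or an unadjusted p under 0.05, and their log2 differences ran from -0.17 to 0.63.

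The share of all counts on processed pseudogenes overlapped between the genotypes. It was 4.69%, 4.56%, 3.84% and 3.27% in the WT libraries and 4.51%, 3.27%, 3.31% and 3.52% in the KO libraries, with R-11 the highest in KO and R-5 the lowest in WT. The same 2 libraries were at opposite ends of another axis. The first principal component of the 18 aortas put R-2, R-3 and R-11 at -44.5, -37.6 and -63.5 and the other 5 SD libraries between 17.4 and 43.9. Levels of the longest quintile of protein-coding genes relative to the shortest ran with it, from -0.73 on the log2 scale in R-11 to 0.55 in R-5. The median log2 difference of KO minus WT was -0.052 in the shortest quintile and 0.033 in the longest under SD. Under HFD these medians were -0.133 and 0.117. With a term for the sign on the first principal component, added after seeing the data, 14 genes were called under SD. All were pseudogenes with lower levels in KO, among them the 5 described above. An unadjusted p under 0.05 from edgeR was then found for 338 pseudogenes in place of 241. The rise was not limited to them, with 885 protein-coding genes in place of 358 and 1363 genes of all classes in place of 701. The labels name no batch, and the part of this axis in the results was not tested further.

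No protein-coding gene passed the test either: edgeR's quasi-likelihood test called 0 of 12325, with a smallest adjusted p of 0.211, and 358 had an unadjusted p under 0.05 (957 without R-11), while DESeq2 called 4 and the exact and likelihood ratio tests called 5 each. The 5 with the smallest p in each direction, at a mean of at least 1 FPM, are described here with their values.

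Pcx, pyruvate carboxylase, which makes oxaloacetate from pyruvate and is abundant in fat and liver, had 21.8, 23, 23.6 and 16.9 FPM in WT and 9.73, 11.2, 15.6 and 13.2 FPM in KO. The groups did not overlap, but R-5 and R-14 came close to each other. The log2 difference was -0.78 (standard error 0.16, adjusted p = 0.211 with the quasi-likelihood test and 0.00507 with DESeq2). Under HFD it was -0.28 with an unadjusted p of 0.0682.

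Retn, the adipocyte hormone resistin, had 19.6, 12, 19 and 3.48 FPM in WT and 2.65, 1.55, 3.24 and 1.88 FPM in KO. R-5 lay apart from the other WT libraries and next to KO. The log2 difference was -2.53 (standard error 0.59, adjusted p = 0.288 with the quasi-likelihood test and 0.00774 with DESeq2), and under HFD it was -0.34. With the white adipocyte score as a covariate, which includes Retn, it shrank to -0.22.

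Scd1, the desaturase that makes oleate from stearate, had 229, 352, 442 and 345 FPM in WT and 114, 148, 193 and 224 FPM in KO, a log2 difference of -1.01 (standard error 0.27, adjusted p = 0.408 with edgeR). The highest KO library and the lowest WT library almost met. Gm7324 had a log2 difference of -0.41 and Morn4 of -0.68, with adjusted p of 0.493 and 0.494 in the same edgeR fit and groups that did not overlap.

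Among genes with higher values in KO, Gm49450 had the smallest p. It had 1.94, 2.07, 2.48 and 1.10 FPM in WT and 4.98, 4.81, 6.12 and 6.22 FPM in KO, a log2 difference of 1.54 (standard error 0.36, adjusted p = 0.29 with the quasi-likelihood test and 0.0148 with DESeq2). Each KO library was above each WT library, R-11 included. Under HFD the log2 difference was 1.44 with an unadjusted p of 0.000304 and an adjusted p of 0.101 from edgeR, with 1.92, 1.38, 1.81, 2.69 and 5.52 FPM in WT and 4.87, 6.79, 7.64, 10.1 and 6.79 FPM in KO. The WT value of 5.52 belonged to R-10 and was the only one within the KO range. In kidney the log2 difference was 0.33 with an unadjusted p of 0.0913.

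Slirp, an RNA-binding protein that stabilises mitochondrial messenger RNAs, had 1.41, 1.85, 0.765 and 0.484 FPM in WT and 4.33, 2.81, 2.44 and 2.26 FPM in KO, a log2 difference of 1.39 (standard error 0.34, adjusted p = 0.35 with the quasi-likelihood test and 0.0188 with DESeq2). Its values did not overlap between the groups, and R-11 was the highest. Under HFD the log2 difference was 0.91 with an unadjusted p of 0.00769. Sptbn5, a beta spectrin of the membrane skeleton, had 2.60, 1.06, 1.96 and 1.5 FPM in WT and 2.70, 3.86, 4.63 and 4.24 FPM in KO, a log2 difference of 1.11 with an adjusted p of 0.493 from edgeR.

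The last 2 genes belong to inflammation. Gbp4, an interferon-inducible GTPase, had 25.4, 6.57, 19.7 and 7.48 FPM in WT and 33.7, 33.0, 40.5 and 144 FPM in KO, a log2 difference of 2.08 (standard error 0.58, adjusted p = 0.493 with edgeR). The value of 144 belonged to R-15 and stood far above the other KO libraries. Without R-15 the log2 difference of Gbp4 was 1.27. Il1b, the cytokine interleukin-1 beta, had 0.396, 0.159, 0.526 and 0.352 FPM in WT and 1.82, 1.4, 0.697 and 2.07 FPM in KO, a log2 difference of 2.04 with an adjusted p of 0.493 from edgeR.

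**Figure D4:**
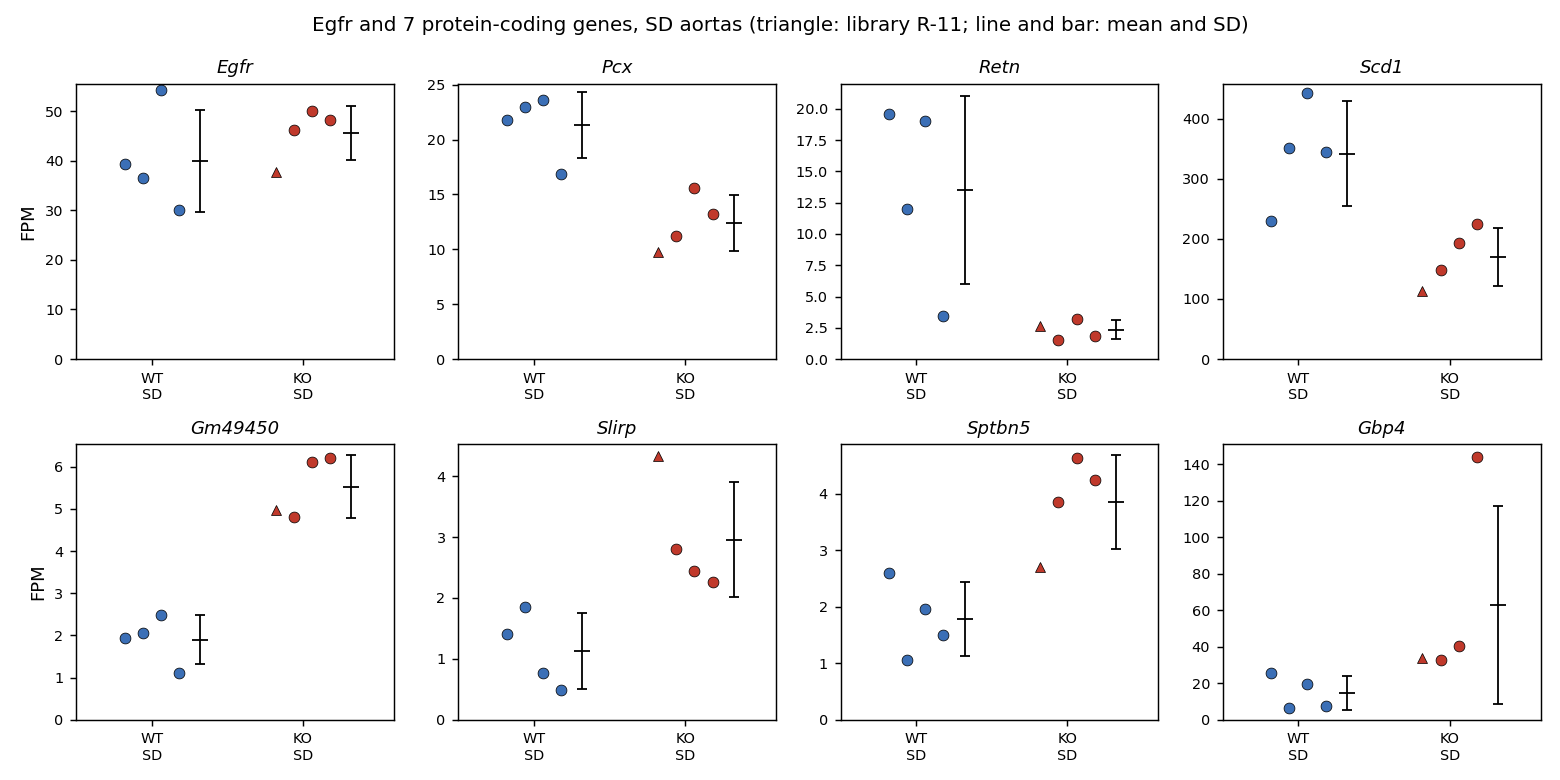
Level in FPM (vertical axis) of Egfr and of 7 protein-coding genes with small p in the 8 SD aortas, by genotype (horizontal axis); points are libraries, the triangle is R-11, and line and bar give the mean and SD. Egfr overlaps between genotypes, and the other 7 do not.

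Pseudogenes with higher values and an unadjusted p under 0.05 numbered 19. The 5 with the smallest p, Gm13245, Gm6344, Gm12250, H2-Q5 and Gm5530 had log2 differences of 1.17, 1.53, 2.27, 1.42 and 0.55, with edgeR adjusted p of 0.493 for the first 2 and 0.744 to 0.902 for the others. The groups overlapped for Gm12250, which stood at 7.3 FPM in R-15 and 1.05 to 1.59 FPM in the other KO libraries, and without R-15 its log2 difference was 1.24 with an unadjusted p of 0.0826. Gm6344, a copy of the ribosomal protein gene Rpl29 that lies across an exon of Uimc1 on the other strand, stood at 19.4 FPM in R-11, 7.17 to 8.12 FPM in the other KO libraries and 2.05 to 5.77 FPM in WT. Without R-11 its log2 difference was 1.09. H2-Q5 belongs to the class I histocompatibility genes, and its closest coding relative H2-Q7 had a log2 difference of 1.63 with an unadjusted p of 0.0033. For H2-Q7 the WT libraries had 31.8, 7.42, 33.7 and 15 FPM and the KO libraries 63.7, 39.7, 53.0 and 116 FPM, without overlap and with R-15 highest, as for Gbp4.

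The other members of the EGF receptor system were then taken by role. Of 17 genes on the list, 11 were tested, 3 (Areg, Epgn and Nrg1) were too low, and Nrg3, Nrg4 and Adam10 had 0 counts in all libraries. The co-receptor Erbb2 had 24.9, 21.3, 25.5 and 27.5 FPM in WT and 29.0, 26.3, 24.8 and 26.9 FPM in KO, a log2 difference of 0.11. Erbb3 and Erbb4 had log2 differences of -0.06 and -0.12. None of the 3 co-receptors separated the groups.

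Among the ligands, Egf had the smallest p of the list. Its level was 0.617, 0.636, 0.860 and 0.572 FPM in WT and 0.792, 1.85, 1.19 and 1.51 FPM in KO, a log2 difference of 0.99 (standard error 0.36, unadjusted p = 0.0134, adjusted p = 0.869 with edgeR). R-11 alone lay within the WT range, and under HFD the log2 difference was -0.33. Hbegf, the heparin-binding ligand, had a log2 difference of -0.32, Ereg of -0.19, Tgfa of 0.43, Btc of 0.00 and Nrg2 of 0.40, with unadjusted p from 0.225 to 0.99. Adam17, the sheddase, had a log2 difference of 0.06. Over the list, 1 of 11 genes had an unadjusted p under 0.05, against 4.60% of all genes, and the median was 0.06 against -0.00479 over all genes tested. Without R-11 the median was 0.19.

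Downstream of the receptor, 19 of 20 genes of signalling and feedback were tested, and 0 had an adjusted or an unadjusted p under 0.05 in edgeR's quasi-likelihood test. Their log2 differences ran from -0.40 to 0.42 with a median of -0.08, which turned to 0.03 without R-11. Etv5, a transcription factor switched on by the MAP kinase cascade, had the smallest p at 0.144 (log2 difference -0.25). Dusp6, which removes phosphate from ERK, had 20.4, 21.6, 47.1 and 48.6 FPM in WT and 39.3, 56.0, 46.8 and 42.5 FPM in KO. Its WT values split into a low and a high pair, the KO values lying between and above. The inhibitors Errfi1, Spry1, Spry2, Spry4 and Lrig1 had log2 differences of -0.31, -0.16, 0.01, -0.19 and -0.40.

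Endothelial genes had mostly higher values in KO, none of them past the test. Of 17 on the list, 14 were tested and Esam, Cdh5 and Robo4 had 0 counts in all libraries. In 11 of the 14 the value was higher in KO, with a median log2 difference of 0.67, and 1 had an unadjusted p under 0.05, against 4.60% of all genes. The list summed to 1238, 545.3, 1809 and 1697 FPM in WT and 1084, 1798, 2749 and 2473 FPM in KO. R-11 lay among the WT libraries, and without it all 14 had higher values in KO (median 0.91), 2 of them with an unadjusted p under 0.05, as had 1606 of all 15465 genes tested without R-11. Sox17, a transcription factor of arterial endothelium, had 18.5, 9.64, 21.4 and 11 FPM in WT and 22.7, 27.6, 36.5 and 31.7 FPM in KO, a log2 difference of 0.97 (standard error 0.41, unadjusted p = 0.0299 and adjusted p of 1 with edgeR). It was the only one of the 14 without overlap, where 1.01% of all protein-coding genes were higher in KO without overlap. Pecam1, the adhesion molecule CD31, had 402, 178, 572 and 551 FPM in WT and 347, 597, 932 and 914 FPM in KO.

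Tek, the gene of the Tie2 receptor whose promoter drives Cre, had 44.0, 14.9, 89.8 and 82.7 FPM in WT and 29.7, 99.7, 141 and 124 FPM in KO, a log2 difference of 0.77 (standard error 0.59). Within each genotype the low values were those of R-2, R-3 and R-11, the libraries with low levels of long genes. Vwf, von Willebrand factor, had a log2 difference of 0.65 with the same libraries low. The part of that axis in the endothelial values was not tested further. In 6 tested genes of endothelial activation the value was higher in all 6, with a median of 0.69 and 0 past an adjusted or unadjusted p of 0.05 in edgeR, against 2 past the unadjusted one without R-11, when far more genes of all kinds passed it. Icam2 came nearest, at 37.7, 12.3, 34.8 and 23.0 FPM in WT and 39.0, 40.3, 52.7 and 53.0 FPM in KO.

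Genes that set vessel tone bear on vascular function, which the study measured in isolated vessels. Of 24 tested, 0 were called by edgeR's quasi-likelihood test, 2 had an unadjusted p under 0.05 (against 4.60% of all genes), both higher in KO, and the median log2 difference was 0.02 (0.08 without R-11). Nos3, endothelial nitric oxide synthase, had 46.8, 19.7, 45.0 and 23.8 FPM in WT and 38.2, 65.6, 89.5 and 68.2 FPM in KO, a log2 difference of 0.95 (standard error 0.41, unadjusted p = 0.034 with edgeR). Ptgs1, the constitutive cyclooxygenase, had 21.4, 10.9, 23.7 and 23.4 FPM in WT and 23.1, 30.5, 42.6 and 35.4 FPM in KO, a log2 difference of 0.73 (unadjusted p = 0.0285 with edgeR). In both genes R-11 was the KO library within the WT range.

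Edn1, the precursor of the constrictor endothelin-1, had 29.7, 14.9, 48.1 and 52.7 FPM in WT and 52.2, 50.7, 64.6 and 121 FPM in KO, a log2 difference of 0.99 with p of 0.0624. Ednra, its receptor on smooth muscle, had 12.5, 12.7, 14.1 and 20.5 FPM in WT and 11.8, 12.0, 11.7 and 12.0 FPM in KO. These did not overlap, but the log2 difference was only -0.33 with an unadjusted p of 0.0809 from edgeR. Of the 24 genes, 1 was lower without overlap and 1 was higher. The shares over all protein-coding genes were 0.836% and 1.01%. Guanylate cyclase subunits Gucy1a1 and Gucy1b1, which sense nitric oxide in smooth muscle, had log2 differences of -0.09 and -0.06, and the alpha-1 adrenergic receptors Adra1a, Adra1b and Adra1d of -0.26, -0.45 and 0.07.

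Smooth muscle and matrix genes, which make up much of the wall, differed little. Of 11 smooth muscle genes tested, 10 had lower values in KO with a median of -0.16, and 0 had an adjusted or unadjusted p under 0.05 in edgeR, while without R-11, 3 had such an unadjusted p, as had 1606 of all 15465 genes. Myh11, smooth muscle myosin, had a log2 difference of -0.19 and Acta2, smooth muscle actin, of -0.26. Acta2 stood at 27800 and 28300 FPM in R-2 and R-3 and at 29100 FPM in R-11, and at 15800 to 18400 FPM in the other 5 libraries. The summed list was 57480 FPM in R-11 and 36370 to 38550 FPM in the other KO libraries. Of 20 matrix genes tested, 14 had lower values (median -0.13, and -0.05 without R-11), and 0 had an adjusted or unadjusted p under 0.05. Eln, elastin, came with a log2 difference of -0.32 and Col3a1, a fibrillar collagen, with -0.24.

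Adipocyte genes had lower values in KO. Of 13 white adipocyte genes tested, 12 had lower values, 10 of them with an unadjusted p under 0.05, against 1.10% of all protein-coding genes tested that were lower at that threshold, and the median log2 difference was -1.52, yet 0 passed an adjusted p of 0.05 in edgeR's quasi-likelihood test. The list summed to 1550, 1319, 1382 and 984.6 FPM in WT and 911.3, 796.5, 1028 and 723.7 FPM in KO. R-5 was the lowest WT library and R-14 the highest KO library, and they overlapped. Adipoq, the hormone adiponectin, had 37.1, 21.3, 32.5 and 8.76 FPM in WT and 6.05, 4.31, 11.5 and 4.15 FPM in KO, a log2 difference of -1.94 (standard error 0.57, unadjusted p = 0.00337 with edgeR). Cfd, adipsin, had a log2 difference of -2.09 and Cidec, a lipid droplet protein, of -1.96, with the same 2 libraries at the border. Under HFD the median of the list was -0.50. Of 7 brown adipocyte genes, 0 had an adjusted or unadjusted p under 0.05 in edgeR and the median was -0.07. The labels say that adjacent fat was taken off before freezing, and the amount left on each aorta is not given.

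For lymphoid and red blood cell genes, R-11 stood apart from the other 7 libraries. All 13 lymphoid genes tested had higher values in KO with a median log2 difference of 2.56, 3 of them with an unadjusted p under 0.05 (against 4.60% of all genes), and without R-11 the median was 0.26 and 0 of 13 had such a p or an adjusted p under 0.05 in edgeR. Cd79a, a subunit of the B cell receptor, had 0.335 to 0.901 FPM in WT, 17.5 FPM in R-11 and 0.424 to 0.751 FPM in the other KO libraries. The red blood cell list had a median of 0.97 with R-11 and of -0.93 without it, so its direction turned on this library. All 11 macrophage genes had higher values in KO, by a median of 0.24, with R-11 inside the range of the other KO libraries, and 0 had an adjusted or unadjusted p under 0.05 in edgeR. All 11 interferon response genes also had higher values (median 0.36, 0 with p under 0.05). Summed, they reached 208 FPM in R-15 and 174.5 FPM in R-11, against 94.83 to 143.5 FPM in the other 6.

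Immediate-early genes, which respond within minutes to growth factors and to handling of tissue, had higher values in KO in 13 of 13 with a median log2 difference of 0.73, and 0 had an adjusted or unadjusted p under 0.05 in edgeR. They summed to 746.7, 1534, 2971 and 3634 FPM in WT and 4665, 4333, 3536 and 4196 FPM in KO. Fosb, a subunit of the AP-1 factor, had 4.49, 21.4, 74.2 and 110 FPM in WT and 198, 191, 173 and 97.0 FPM in KO. The WT libraries spread widely and the KO libraries by far less. Under HFD the median of the list was 1.42. Clock genes had a median of 0.49 with R-11 and 0.13 without it. Dbp, an output gene of the clock, had 267 FPM in R-11 and 5.28 to 46.0 FPM in the other 7 libraries. Collection times are not given.

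**Figure D5:**
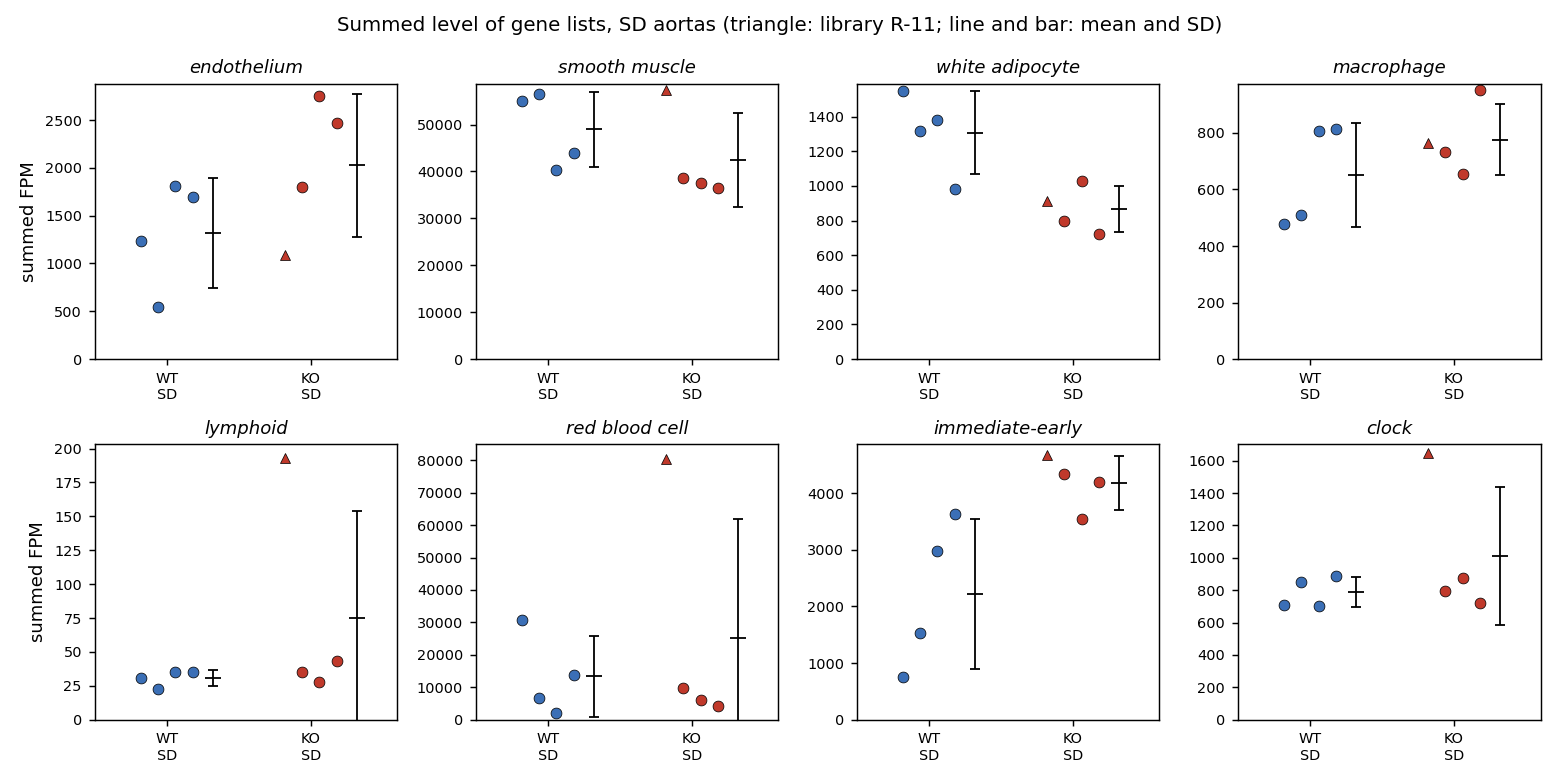
Summed FPM (vertical axis) of 8 gene lists in the 8 SD aortas, by genotype (horizontal axis); points are libraries, the triangle is R-11, and line and bar give the mean and SD. R-11 is far above all others for lymphoid, red blood cell and clock genes, and adipocyte sums are lower in KO apart from R-5 and R-14, which overlap; the KO bars for lymphoid and red blood cell genes are clipped at 0.

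The remaining lists held little. Of 12 cell cycle genes, 9 had higher values with a median of 0.12, which turned to -0.06 without R-11, and 1 had an unadjusted p under 0.05, against 4.60% of all genes. That gene was Bub1, a spindle checkpoint kinase at 0.132 to 0.191 FPM in WT and 0.326 to 0.601 FPM in KO. The skeletal muscle, cardiac muscle, Schwann cell and cartilage lists had medians of -0.22, -0.26 (-0.63 without R-11), -0.01 and -0.14, and among their genes the cartilage gene Chad alone had an unadjusted p under 0.05. The defining muscle genes Myh1, Myh2 and Myh4 and the cartilage gene Col2a1 were too low to test.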

How the data were processed

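RNA of whole mouse aortas and kidneys was sequenced by the authors as poly(A) libraries of paired reads. They mapped the reads to mm10 (HISAT2 2.1.0 in the submitters' processing notes, a different mapper in the methods text) and used featureCounts for counting per gene. The deposited values are raw read counts per gene, without normalization or filter. Strand setting and use of reads with several positions are not given in the sources used here, nor are sex and collection time.

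From these counts, 18 aortas (all 4 groups without R-1 and R-12) were fitted in edgeR 4.0.16 (R 4.3.3) with TMM factors, the group-wise filterByExpr filter, and quasi-likelihood tests with robust dispersion, adjusted by Benjamini and Hochberg. An adjusted p under 0.05 counted as called. The 18 kidneys used were fitted in the same way. Standard errors were taken from the log2 difference and its F value. Replicates are separate mice. Gene symbols came from the Ensembl identifiers, and 55154 of 55335 identifiers had a GENCODE M21 record. Pseudogenes were aligned to protein-coding transcripts of GENCODE M21 with blastn 2.17.0, with at least 50% of the pseudogene aligned. Classes follow the biotype in the table.

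The genes named are Egfr and its family, up to 4 genes of each other list with the smallest p and its defining markers, genes called under SD (none), the 5 protein-coding genes and 5 pseudogenes with the smallest p in each direction at a mean of at least 1 FPM, and parents of pseudogenes. Other genes of the lists, such as Dusp6, and the genes Gapdh, Rps2, H2-Q7 and Cyp2f2 were named after their values were seen. The members and the lists were chosen with earlier results of these data known. Alternatives were other tests (DESeq2 1.42.0, exact, likelihood ratio), filters and normalization, other sets of libraries, an adipocyte covariate and, chosen after seeing the data, a term for the first principal component. The SD contrast of the main fit was also run on simulated counts, with the quasi-likelihood, DESeq2, likelihood ratio and exact tests. Simulated counts were not used for the other contrasts, the kidneys or the other alternatives. With 17520161 to 23683293 counts per aorta, 1 FPM is about 20 reads. In the aorta fit, p-values weigh a difference against the spread between mice within groups, estimated over all 4 groups.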

Additional observations from a re-analysis of the deposited data

Results flagged for a closer look

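Within the groups of 4 SD aortas, 92 sets of values (46 measures in each genotype) were searched for a library far from the other 3 by Dixon's test, and 9 stood out. Chance alone flags about 1 in 20 such sets. Library R-11 accounted for 6 of the 9.

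In R-11, the mean deviation of processed pseudogenes from their mean over all aortas was 0.112 on the log2 scale, against -0.257 to -0.215 in the other KO libraries. Its smooth muscle list summed to 57480 FPM against 36370 to 38550 FPM, its lymphoid list to 193.2 FPM against 27.58 to 43.54 FPM, its red blood cell list to 80270 FPM against 4399 to 9684 FPM, and its clock list to 1647 FPM against 723.5 to 877.4 FPM. The pseudogene Gm6344 stood at 19.4 FPM in R-11 and at 7.17 to 8.12 FPM in the other KO libraries. Among the 5 pseudogenes with the smallest p, R-11 lay near the other KO libraries for Gm11991, Gm5564, Gm5869 and Gm10075. For Gm8319 it lay above them, at 17.9 FPM against 13.3 to 14.9 FPM. These genes were chosen by a p that R-11 entered, so they cannot be set against its mean deviation.

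Library R-15 stood out for 2 genes, Gbp4 at 144 FPM against 33 to 40.5 FPM and Gm12250 at 7.3 FPM against 1.05 to 1.59 FPM. Among WT libraries, R-5 stood out for the list of vasodilator and constrictor genes, with 3824 FPM summed against 3018 to 3152 FPM.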

How the results depend on the processing

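Under SD, 0 genes were called with edgeR's quasi-likelihood test under each normalization, filter, fold threshold, library set and covariate tried other than the following. The DESeq2 Wald test called 32 genes (4 protein-coding, 26 pseudogenes), and the exact and likelihood ratio tests called 30 each (5 protein-coding, 23 pseudogenes). With a term for the sign on the first principal component, added after seeing the data, 14 were called, all of them pseudogenes. Leaving out 1 replicate gave 0 to 3 calls, the 3 without R-3, and 505 to 1606 genes with an unadjusted p under 0.05 (1606 without R-11). The no-filter fit had 1273 such genes, the adipocyte covariate 1668, and the fit with the near-identical libraries kept 345. The log2 difference of Egfr ran from 0.07 to 0.37 over left-out replicates and was 0.09 with the adipocyte covariate. For the 20 other named genes, 355 of 390 values kept their direction and side of the threshold, 35 moved past it, and 0 reversed.

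Under HFD, the count of 21 became 142 with DESeq2, 127 with the exact test, 149 with the likelihood ratio test, 49 with the component term, and 0 with protein-coding genes alone, with the near-identical libraries kept, or with only the HFD groups in the fit. Left-out replicates gave 1 to 150. The cause was not tested. The interaction had 0 calls except 1 (Cyp2f2) with the likelihood ratio test, and the exact test could not be run on it. Kidney counts stayed at 0. No paired analysis was possible because the replicate numbers differ between the groups.

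With 4 libraries a group and 17520161 to 23683293 counts each, the 95% interval for the log2 difference of Egfr spanned -0.17 to 0.54.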

Other observations

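Cyp2f2, a cytochrome P450 best known from lung airway cells, was named after its values were seen. It had 1.19, 1.75, 1.62 and 0.924 FPM in WT and 0.372, 0.25, 0.697 and 0.236 FPM in KO under SD, without overlap. Under HFD it had 0.0561 to 0.202 FPM in WT and 0.149 to 0.543 FPM in KO. The log2 difference was -1.80 under SD and 1.63 under HFD, and their difference was 3.43 (standard error 0.65, unadjusted p = 5.29e-05, adjusted p = 0.807 with edgeR's quasi-likelihood test). All HFD values rest on few reads.

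Genes that are neither protein-coding nor pseudogenes, such as long non-coding RNAs, had a median log2 difference of 0.18 under SD over 1630 genes, with 92 higher and 10 lower in KO at an unadjusted p under 0.05, and of -0.01 under HFD. Without R-11, protein-coding genes with an unadjusted p under 0.05 numbered 957 in place of 358, and pseudogenes 424 in place of 241, of which 377 had lower values in KO.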
